A study of Homo sapiens with 8 samples.

Results

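The mitotic kinases described here are 10 genes, PLK1, PLK4, AURKA, AURKB, TTK, NEK2, HASPIN, MELK, PBK and CDC7, taken by their symbol in the platform annotation. All 10 of the 10 listed genes had a named probe set, 1 each, among 14884 named genes. The arrays hold RNA of MOLM-14, an established human acute myeloid leukaemia cell line. In 4 arrays (shCD39) the cells expressed a short hairpin RNA against ENTPD1, which encodes CD39, an enzyme that breaks down ATP outside the cell. In the other 4 (shCTRL) they expressed a scrambled hairpin. Both groups had received doxycycline for 72 h to switch the hairpin on. The labels call the arrays of each group technical replicates and speak of clones, and they name a single hairpin per group, so the p-values reflect array-to-array spread, which may be technical.

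Most of these kinases act in the entry into mitosis and the division of the chromosomes, while CDC7 acts earlier, in DNA replication. The genes of many mitotic kinases are switched on late in the cell cycle, largely by the MYBL2 and FOXM1 transcription factors acting with the MuvB complex, and several of the proteins are destroyed as mitosis ends, so their transcripts are widely read as a sign of cycling cells. Small molecules against PLK1 and the Aurora kinases have been tested in acute myeloid leukaemia. In a bulk sample, fewer cells that express these genes and less RNA per such cell cannot be told apart.

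Values are log2 expression per probe set after RMA, a method that sets the arrays to a shared distribution, so a difference is relative to the bulk of probe sets and levels are not compared between genes. Each difference is the shCD39 mean minus the shCTRL mean in log2 units, given with its standard error (SE) from a limma fit to all 14884 genes, and a gene counts as changed where its Benjamini-Hochberg adjusted p is under 0.05. Array medians ran from 3.13 to 3.17, and no array pair was identical (0 pairs). ENTPD1 read 2.42, 2.14, 2.72 and 2.95 in shCD39 arrays 1 to 4, against 3.16, 2.88, 3.21 and 4.12 in shCTRL arrays 1 to 4. Its difference was -0.79 (SE 0.25, limma adjusted p = 0.178), and the groups overlapped, so the targeted gene was lower in mean without passing the threshold. All 4 shCD39 values lay below the array medians and a filter on dim genes drops the gene, so this difference is that of a dim probe set. The shCD39 array 4 lay closest to the controls for the kinases. It read below every shCTRL array in 4 of the 10, against 9 of 10 in each of the shCD39 arrays 1, 2 and 3. Of all genes, 22.8% read below every shCTRL array in shCD39 array 4, against 26.3%, 25.5% and 28.0% in arrays 1, 2 and 3. Each kinase is therefore given with and without it.

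Promoter sequences are shown first. All 10 kinases had lower means in shCD39, and whether promoter motifs have a part in this was not tested. RefSeq promoter windows of assembly GRCh38.p14, from 250 bases before to 50 after the gene start, were matched for 6 of the 10 kinases (PLK1, PLK4, AURKB, NEK2, MELK and CDC7). They were searched on both strands for the cell cycle genes homology region, CHR, the element that MuvB binds (TTTGAA or TTCGAA), for the CCAAT box (CCAAT) and for an E2F site (TTTGGCG or TTTCGCG). The 160 bases before the start are printed for PLK1, which holds a CHR and a CCAAT box, for NEK2, which holds 2 CCAAT boxes, and for MELK, which holds none of these letters. They lie at chr16:23678729-23678888 on the plus strand, chr1:211675622-211675781 on the minus strand and chr9:36572735-36572894 on the plus strand, and are written along the gene's strand with motif matches in capitals.
PLK1: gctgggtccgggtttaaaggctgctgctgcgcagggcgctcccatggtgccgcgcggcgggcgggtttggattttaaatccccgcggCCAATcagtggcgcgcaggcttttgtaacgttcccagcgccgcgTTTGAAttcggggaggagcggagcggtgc
NEK2: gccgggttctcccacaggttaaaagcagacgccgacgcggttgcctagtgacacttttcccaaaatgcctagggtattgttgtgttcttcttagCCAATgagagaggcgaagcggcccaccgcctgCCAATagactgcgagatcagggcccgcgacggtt
MELK: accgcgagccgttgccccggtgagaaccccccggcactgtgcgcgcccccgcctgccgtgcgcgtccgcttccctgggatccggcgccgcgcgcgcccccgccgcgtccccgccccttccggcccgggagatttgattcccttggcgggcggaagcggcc

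In PLK1 the CHR match ran from -29 to -24 and the CCAAT box from -73 to -69 relative to the start. The boxes of NEK2 ran from -66 to -62 and from -34 to -30. Outside the printed stretches, AURKB held a CCAAT box on the other strand from -153 to -149, and PLK4 a CHR match on the other strand from 39 to 44 after the start. A CHR match was thus present in 2 of 6 kinase windows and in 16.6% of all 27305 promoter windows. A CCAAT box was present in 3 of 6 and in 35.7%, and an E2F match in 0 of 6 and in 3.22%. PLK1 alone of the 6 held both a CHR and a CCAAT box, as did 6.58% of all windows. A match is a stretch of letters, not a shown binding site.

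All 10 kinases had a lower mean in shCD39 than in shCTRL, where 48.0% of all genes did. The median difference over the 10 was -0.64, against 0.01 over all genes. None of the 10 passed the threshold in the limma fit (0 of 10), which called 14 genes in all, 0.0941% of those tested. At an unadjusted p under 0.05, 7 kinases were lower (PLK1, PLK4, AURKB, NEK2, HASPIN, MELK and CDC7), against 8.13% of all genes. In 4 kinases, PLK1, AURKB, HASPIN and MELK, every shCD39 array read below every shCTRL array, as in 4.23% of all genes. Without shCD39 array 4 the fit called 5 kinases lower (HASPIN, MELK, CDC7, PLK4 and NEK2), against 2.1% of all genes called lower. With array weights it called HASPIN and MELK lower, against 0.585% of all genes, and without both arrays numbered 4 it called HASPIN, MELK and PLK4 lower, against 1.85%. The lowest weight of the 8 arrays, 0.63, went to shCD39 array 4, so both settings discount that array. With shCD39 array 4 alone left out, every remaining shCD39 array read below every shCTRL array in 9 kinases, AURKA being the exception, and in 9.49% of all genes. That array is the one in which most kinases lay nearest to the controls, so leaving it out favours lower calls of these genes. In each of the 7 fits that left out another single array, limma called 0 kinases.

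**Figure D1:**
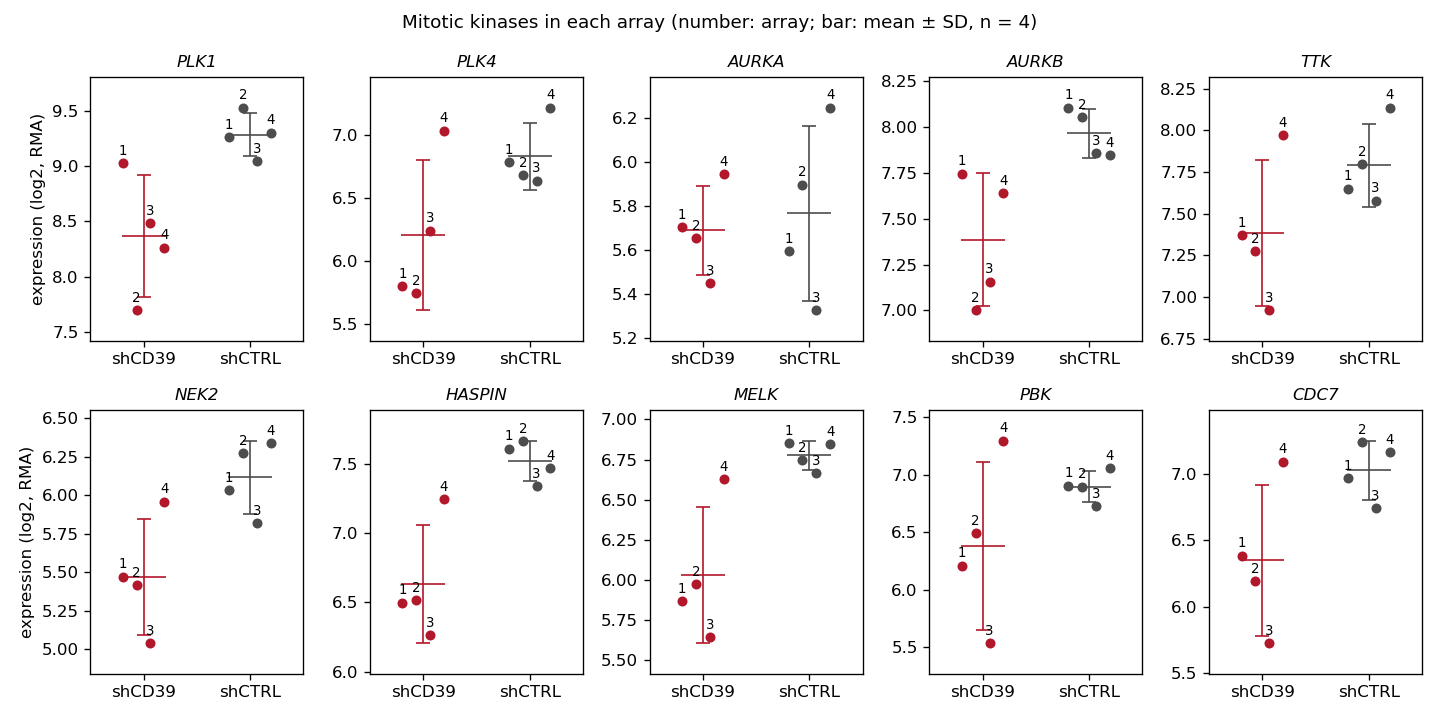
Expression of each of the 10 kinases (log2, RMA; each panel has its own vertical scale) in the 4 shCD39 arrays, left, and the 4 shCTRL arrays, right. Points are arrays with their number, and bars are the mean ± SD (n = 4). The groups are separate in PLK1, AURKB, HASPIN and MELK, and shCD39 array 4 is the highest shCD39 array in 8 panels.

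PLK1 and PLK4 are the Polo-like kinases of the group. PLK1 triggers mitotic entry, matures the centrosomes and acts at kinetochores and in cytokinesis. It read 9.03, 7.70, 8.49 and 8.26 in shCD39 arrays 1 to 4, against 9.26, 9.53, 9.05 and 9.30 in shCTRL arrays 1 to 4. Every shCD39 value was below every shCTRL value, but shCD39 array 1 missed the lowest control by only 0.018, while array 2 stood at -1.59 from the control mean. The difference was -0.92 (SE 0.23, 95% interval -1.42 to -0.41), or 1.89-fold lower, with a limma adjusted p of 0.113 and an exact 2-sided permutation p of 0.0286, the smallest that 4 against 4 arrays can give. Leaving out shCD39 array 4 hardly moved it, to -0.88 (limma adjusted p = 0.0925). PLK1 had the largest difference of the 10 kinases over all 8 arrays, and yet was not among the 5 called without that array.

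PLK4 starts the duplication of centrioles. It read 5.80, 5.74, 6.24 and 7.04 in shCD39 arrays 1 to 4, against 6.79, 6.69, 6.64 and 7.22 in shCTRL arrays 1 to 4. The shCD39 array 4 read above 3 of the 4 controls, and the groups overlapped. The difference was -0.63 (SE 0.25, limma adjusted p = 0.275, exact permutation p = 0.114), or -0.90 without shCD39 array 4 (limma adjusted p = 0.0239). It was -0.47 without shCD39 array 2 (limma adjusted p = 0.468).

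The Aurora kinases share a catalytic domain but not a place in the cell. AURKB is the enzyme of the chromosomal passenger complex, which corrects wrong attachments of chromosomes to the spindle. It read 7.75, 7.002, 7.16 and 7.64 in shCD39 arrays 1 to 4, against 8.11, 8.05, 7.86 and 7.85 in shCTRL arrays 1 to 4. The groups did not overlap, and the gap between them was 0.10. The difference was -0.58 (SE 0.17, limma adjusted p = 0.149, exact permutation p = 0.0286), and -0.66 without shCD39 array 4 (limma adjusted p = 0.0672).

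AURKA, which works at centrosomes and spindle poles and activates PLK1, had the smallest difference of the 10. It read 5.71, 5.66, 5.45 and 5.95 in shCD39 arrays 1 to 4, against 5.60, 5.90, 5.33 and 6.25 in shCTRL arrays 1 to 4, and the shCTRL arrays spanned all 4 shCD39 values. The difference was -0.08 (SE 0.18, 95% interval -0.48 to 0.33, limma adjusted p = 0.892, exact permutation p = 0.771), so a difference as large as that of TTK lay within its interval. Its sign depended on single arrays: it was 0.08 without shCTRL array 4 and 0.0023 without shCD39 array 3. Without shCD39 array 4 the difference was -0.16 (limma adjusted p = 0.715). AURKA was also the one kinase whose SD was smaller in shCD39 (0.20) than in shCTRL (0.40). Whether its difference departs from those of the other kinases was not tested.

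TTK, also called MPS1, starts the spindle assembly checkpoint at unattached kinetochores. It read 7.37, 7.28, 6.92 and 7.97 in shCD39 arrays 1 to 4, against 7.65, 7.80, 7.58 and 8.14 in shCTRL arrays 1 to 4. The shCD39 arrays 1 to 3 were below all controls, and array 4 was above 3 of the controls. The difference was -0.41 (SE 0.20, limma adjusted p = 0.385, exact permutation p = 0.171), or -0.25 without shCD39 array 3 and -0.60 without shCD39 array 4 (limma adjusted p = 0.664 and 0.0741).

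NEK2 splits the linker between the centrosomes before the spindle forms. It read 5.47, 5.42, 5.04 and 5.96 in shCD39 arrays 1 to 4, against 6.03, 6.27, 5.82 and 6.34 in shCTRL arrays 1 to 4. The overlap came from shCD39 array 4 and shCTRL array 3 alone. The difference was -0.64 (SE 0.18, limma adjusted p = 0.149, exact permutation p = 0.0571), and -0.81 without shCD39 array 4 (limma adjusted p = 0.027). It was -0.50 without shCD39 array 3 (limma adjusted p = 0.300).

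HASPIN phosphorylates histone H3 at centromeres and so provides the mark on which the passenger complex gathers. It read 6.50, 6.52, 6.26 and 7.24 in shCD39 arrays 1 to 4, against 7.61, 7.66, 7.34 and 7.47 in shCTRL arrays 1 to 4. The groups did not overlap, and shCD39 arrays 1 to 3 stood at -1.02, -1.004 and -1.26 from the control mean, while array 4 stood at -0.28. The difference was -0.89 (SE 0.19, 95% interval -1.29 to -0.48), or 1.85-fold lower, and its adjusted p of 0.084 in limma was the lowest of the 10 (exact permutation p = 0.0286). Without shCD39 array 4 it was -1.09 (SE 0.12, limma adjusted p = 0.00456). With array weights, which weighted that array least, it was -0.94 (limma adjusted p = 0.0382). Without shCD39 array 3 it was -0.77, and without shCTRL array 1 it was -0.86 (limma adjusted p = 0.194 and 0.275).

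MELK, a kinase of dividing and stem-like cells whose need for proliferation has been disputed, showed nearly the same pattern. It read 5.87, 5.98, 5.64 and 6.63 in shCD39 arrays 1 to 4, against 6.85, 6.75, 6.66 and 6.85 in shCTRL arrays 1 to 4. The groups were separated by 0.036, and the controls lay close together (SD 0.09, against 0.42 in shCD39). The difference was -0.75 (SE 0.18, limma adjusted p = 0.106, exact permutation p = 0.0286). It was -0.95 without shCD39 array 4 (limma adjusted p = 0.00594). With array weights, which weighted that array least, it was -0.78 (limma adjusted p = 0.0498). Without shCD39 array 3 it was -0.62, and without shCTRL array 1 it was -0.72 (limma adjusted p = 0.235 and 0.287).

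PBK, a kinase of proliferating cells also known as TOPK, was the most variable in shCD39. It read 6.21, 6.49, 5.54 and 7.30 in shCD39 arrays 1 to 4, against 6.90, 6.90, 6.73 and 7.06 in shCTRL arrays 1 to 4. Array 3 of shCD39 was the lowest of all 8 and array 4 the highest of all 8, so the SD was 0.73 in shCD39 and 0.14 in shCTRL. The difference was -0.51 (SE 0.28, limma adjusted p = 0.442, exact permutation p = 0.229), or -0.23 without shCD39 array 3 and -0.82 without shCD39 array 4 (limma adjusted p = 0.744 and 0.0559).

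CDC7 acts earlier than the others. With its activating subunit DBF4 it phosphorylates the MCM helicase and so fires replication origins. It read 6.39, 6.19, 5.73 and 7.09 in shCD39 arrays 1 to 4, against 6.97, 7.24, 6.74 and 7.16 in shCTRL arrays 1 to 4. The shCD39 arrays 1 to 3 were below all controls, and array 4 was above 2 of them. The difference was -0.68 (SE 0.24, limma adjusted p = 0.216, exact permutation p = 0.0857), and -0.93 without shCD39 array 4 (limma adjusted p = 0.0233). It was -0.47 without shCD39 array 3 (limma adjusted p = 0.403).

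**Figure D2:**
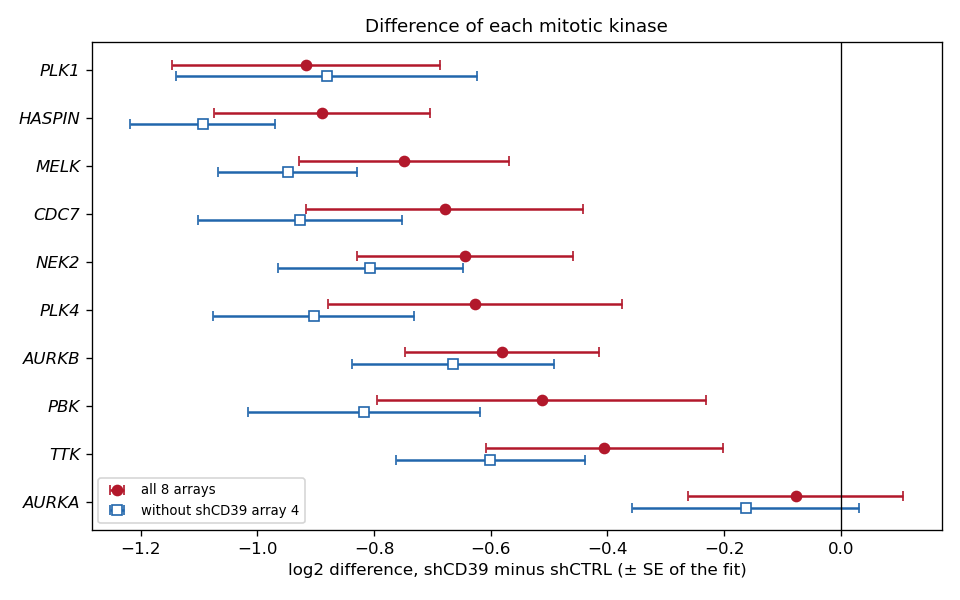
Log2 difference, shCD39 minus shCTRL, of the 10 kinases with the SE of the limma fit as bars, over all 8 arrays (filled circles) and without shCD39 array 4 (open squares). Over all arrays the differences run from -0.92 for PLK1 to -0.08 for AURKA, and without that array HASPIN lies lowest at -1.09 while PLK1 stays at -0.88.

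Some of the genes share sequence or ground with others. RefSeq lists 2 pseudogenes named after AURKA, 1 after AURKB and 4 after NEK2, and whether the probes of these kinases also bind their transcripts was not tested. In RefSeq, PLK1 overlaps ERN2, HASPIN overlaps ITGAE and PBK overlaps ESCO2, a cohesin acetyltransferase of S phase. PLK4 overlaps RNU6-583P, NEK2 overlaps FDPSP8 and CDC7 overlaps LOC102723436, and these 3 genes and ITGAE were not analysed here. Neighbours were looked up after the values were seen. ERN2 had a difference of 0.03 (SE 0.15) where PLK1 had -0.92. ESCO2 had -0.78 (SE 0.20, limma adjusted p = 0.115). It read 5.94, 6.23, 5.46 and 6.54 in shCD39 arrays 1 to 4 and 6.64 to 6.99 in shCTRL, so unlike PBK its groups did not overlap.

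The order of the arrays within a group was alike in many of these genes. The genes share the same arrays, so the counts below are not independent, and no test was made of them. In shCD39, array 3 was the lowest in 7 kinases (AURKA, TTK, NEK2, HASPIN, MELK, PBK and CDC7), whereas it was the lowest in 26.2% of all genes. Array 2 was the lowest in the other 3, PLK1, PLK4 and AURKB, and in 23.1% of all genes. Array 4 was the highest in 8 kinases and in 27.1% of all genes, and array 1 in PLK1 and AURKB. In shCTRL, array 3 was the lowest in 9 kinases, with AURKB as the exception, and in 26.1% of all genes. The SD was larger in shCD39 in 9 of 10 kinases and in 62.7% of all genes. The mean deviation of the 10 kinases from their shCTRL means was -0.59, -0.80, -0.95 and -0.09 in shCD39 arrays 1 to 4, against -0.02, 0.08, -0.22 and 0.17 in shCTRL arrays 1 to 4. The value of shCD39 array 4 thus lay inside the range of the controls, and those of arrays 1 to 3 below it.

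**Figure D3:**
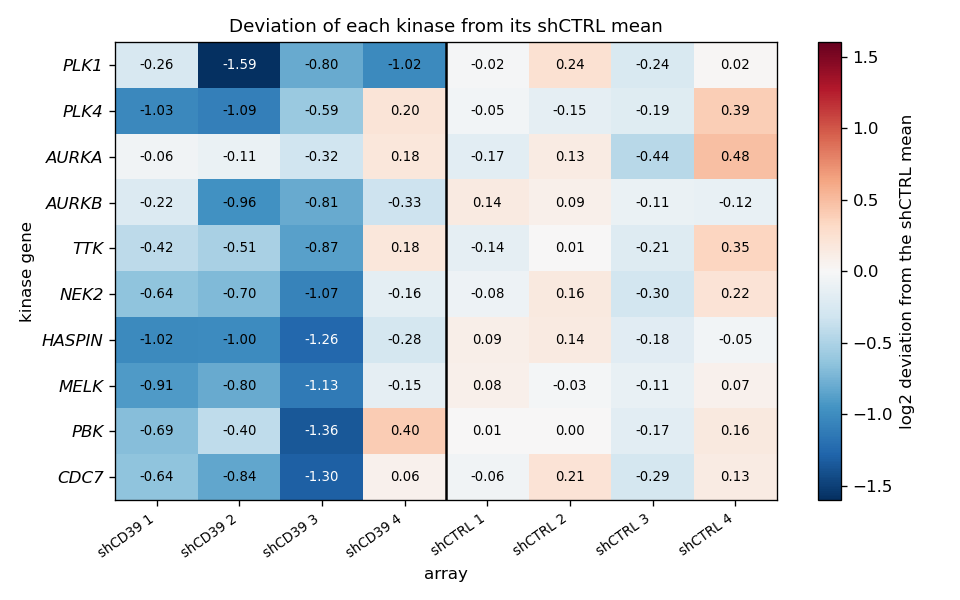
Log2 deviation of each kinase (rows) from its own shCTRL mean in the 4 shCD39 arrays, left of the line, and the 4 shCTRL arrays, right of it. In PLK1 and AURKB the deviation is largest in shCD39 array 2 and smallest in array 1, while HASPIN, MELK, TTK, NEK2, PBK and CDC7 are lowest in array 3 and highest in array 4.

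The kinases followed these arrays in different ways. Likeness was measured as the root mean square difference between the centred log2 values of a pair of genes over the 8 arrays, which all genes share. Of the 45 pairs the closest were HASPIN and MELK (0.11), and NEK2 and CDC7 (0.13). Over the 4 shCD39 arrays alone HASPIN and MELK differed by 0.036, and TTK and NEK2 by 0.059. PLK1 was far from most of the others: its nearest kinase was AURKB (0.30) and its farthest PBK (0.68). Among the 7441 genes with at least the median spread over the arrays, the 5 most like PLK1 were NKD2 (0.21), FOXM1 (0.21), NPM3 (0.21), MYBL2 (0.21) and PCLAF (0.23). FOXM1 and MYBL2 are transcription factors of mitotic genes, NKD2 an inhibitor of Wnt signalling, NPM3 a nuclear chaperone and PCLAF a partner of the replication clamp PCNA. FOXM1 read 6.79, 5.70, 6.18 and 6.36 in shCD39 arrays 1 to 4, against 6.93, 7.10, 6.51 and 6.87 in shCTRL arrays 1 to 4, so that, as in PLK1, shCD39 array 1 was the highest and array 2 the lowest of the group. The same order held in NKD2, NPM3, MYBL2 and PCLAF. It follows in part from choosing these genes by their likeness to PLK1 over the same arrays. These likenesses are descriptions over 8 arrays and carry no test.

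The partners of the kinases were taken by role from lists written with earlier results of these data known. Of the 132 different genes measured in them, 0 passed the limma threshold over all arrays, while at an unadjusted p under 0.05, 74 were lower and 2 higher in shCD39, against 8.13% of all genes lower and 6.54% higher. Most had lower means, and the counts without shCD39 array 4 are read against 2.1% of all genes lower and 0.746% higher. That array lay nearest to the controls for the kinases, so leaving it out may favour lower calls of partners that vary with them. The shares over all genes do not correct for this. Counts with another single array left out are not given for these lists. The counts below cover measured genes only. Measured were 12 of 17 listed genes for the spindle checkpoint, 12 of 16 for the CDK1 switch and 14 of 21 for substrates. For transcription factors 17 of 23 were measured, for cohesion 11 of 13 and for the centrosome linker 4 of 7. Activators had 8 of 10 measured, centriole genes 9 of 10, other kinases 14 of 16 and the ubiquitin ligase 16 of 17. From each list the 2 genes with the largest difference are named, and INCENP, BIRC5, FRY, STIL, PLK3, AURKC, DBF4 and DBF4B were added, after their values were seen, as partners or paralogs of the kinases.

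The activators of Aurora and Polo kinases had 7 of 8 measured genes with a lower mean and a median of -0.37. HMMR, a spindle protein, had -0.76 (SE 0.29), with shCD39 array 4 at 8.18 above the controls, which read 7.94 to 8.16. CDCA8, the borealin subunit of the passenger complex, read 6.75, 6.51, 6.59 and 7.08 in shCD39 arrays 1 to 4, against 7.39, 7.44, 7.41 and 7.51 in shCTRL arrays 1 to 4. Its groups did not overlap, with a difference of -0.71 (SE 0.13, limma adjusted p = 0.0782). The other subunits that hold AURKB were lower in mean too, INCENP at -0.46 (SE 0.12, limma adjusted p = 0.116, no overlap) and BIRC5, or survivin, at -0.36 (SE 0.14, limma adjusted p = 0.257). FRY, the member with a higher mean, had 0.55 (SE 0.16, limma adjusted p = 0.152) and read higher in every shCD39 array than in every shCTRL array. With shCD39 array 4 left out, CDCA8, INCENP and HMMR fell (3 of 8).

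Centriole genes, the setting of PLK4, had 8 of 9 lower means and a median of -0.44. CCP110, which caps centrioles, had -0.70 (SE 0.19, limma adjusted p = 0.132). CEP152, the scaffold that recruits PLK4, had -0.63 (SE 0.14, limma adjusted p = 0.0876), and STIL, a substrate of PLK4, had -0.57 (SE 0.15, limma adjusted p = 0.118). In all 3 the groups did not overlap, unlike in PLK4 itself, and 4 of 9 fell without shCD39 array 4.

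The spindle checkpoint, which TTK starts, had 12 of 12 lower means and a median of -0.54. SPDL1, which brings dynein to kinetochores, had -0.93 (SE 0.22, limma adjusted p = 0.106), and NDC80, a kinetochore protein that binds microtubules and is a target of Aurora kinases, had -0.89 (SE 0.26, limma adjusted p = 0.157). Without shCD39 array 4, 7 of 12 fell, and NDC80 fell by 1.21 on the log2 scale (limma adjusted p = 0.00456). The list for the linker between centrosomes, the target of NEK2, also holds the centriolar kinesin KIF24. This list had 3 of 4 lower means and a median of -0.19. KIF24 had -0.42 (SE 0.13) and the linker gene CEP250, or C-Nap1, had -0.23 (SE 0.12). Without shCD39 array 4, 0 of 4 were called. Sister chromatid cohesion had 11 of 11 lower means and a median of -0.41. SGO1, which protects centromeric cohesion, had -0.65 (SE 0.14, limma adjusted p = 0.0849), and the cohesin subunit SMC3 had -0.58 (SE 0.22). Of the 11, 5 fell without shCD39 array 4.

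The list of CDC7 partners and origin firing was lower in mean in 21 of 21 genes, with a median of -0.59. The helicase subunit MCM2, a substrate of CDC7, had -0.91 (SE 0.22, limma adjusted p = 0.109), and MCM10, which helps to start the helicase, had -0.85 (SE 0.17, limma adjusted p = 0.0783). DBF4, the subunit that activates CDC7, read 5.53, 5.68, 5.32 and 6.21 in shCD39 arrays 1 to 4, against 5.99, 5.76, 5.84 and 5.98 in shCTRL arrays 1 to 4. Its groups overlapped, and its difference of -0.21 (SE 0.17, limma adjusted p = 0.63) stood beside -0.68 for CDC7. Its relative DBF4B had -0.19 (SE 0.13, limma adjusted p = 0.56). Without shCD39 array 4, 14 of the 21 fell, DBF4 and DBF4B not among them.

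Other kinases of mitosis were more mixed, with 12 of 14 lower means and a median of -0.20. CHEK1, the checkpoint kinase of S and G2 phase, read 6.03, 5.96, 5.31 and 6.59 in shCD39 arrays 1 to 4, against 6.75, 6.84, 6.80 and 6.99 in shCTRL arrays 1 to 4. Its groups did not overlap (difference -0.87, SE 0.21, limma adjusted p = 0.109). PLK2, a Polo-like kinase induced by p53 and stress, pointed the other way. It read 4.61, 4.05, 4.26 and 3.60 in shCD39 arrays 1 to 4, against 3.59, 2.96, 3.41 and 3.75 in shCTRL arrays 1 to 4 (difference 0.70, SE 0.22, limma adjusted p = 0.17), and it rose by 0.88 without shCD39 array 4 (limma adjusted p = 0.0423). The remaining paralogs stood near 0, PLK3 at -0.0050 (SE 0.12) and AURKC at -0.08 (SE 0.11). The kinases CDK1, BUB1B, WEE1 and CHEK1 fell without shCD39 array 4.

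The switch of CDK1, the master kinase of mitosis, had 12 of 12 lower means and a median of -0.38. Its inhibitory kinase WEE1 had -0.65 (SE 0.21) and CDK1 itself -0.59 (SE 0.21, limma adjusted p = 0.219), so that the kinase and its inhibitor were lower in mean together. Of the 12, 5 fell without shCD39 array 4. The ubiquitin ligase that degrades PLK1, the Aurora kinases and NEK2 had 11 of 16 lower means and a median of -0.21, with its inhibitor FBXO5 at -0.49 (SE 0.24) and its activator CDC20 at -0.37 (SE 0.18), and without shCD39 array 4 FBXO5 fell (1 of 16).

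Transcription factors of the cell cycle had 14 of 17 lower means and a median of -0.24. MYBL2, which acts with MuvB on mitotic promoters, read 7.76, 6.66, 6.998 and 7.51 in shCD39 arrays 1 to 4, against 8.21, 8.43, 7.78 and 8.37 in shCTRL arrays 1 to 4. The groups did not overlap, and the difference was -0.97 (SE 0.23, limma adjusted p = 0.100). RBL1, the pocket protein p107, had -0.86 (SE 0.17, limma adjusted p = 0.0788). Without shCD39 array 4, MYBL2, RBL1 and the MuvB subunit LIN9 fell (3 of 17). Substrates and effectors of the kinases had 14 of 14 lower means and a median of -0.44, with the microtubule depolymerase KIF2C, a target of AURKB, at -0.67 (SE 0.17, limma adjusted p = 0.111) and the kinesin KIF20B at -0.56 (SE 0.20). Of the 14, 4 fell without shCD39 array 4.

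**Figure D4:**
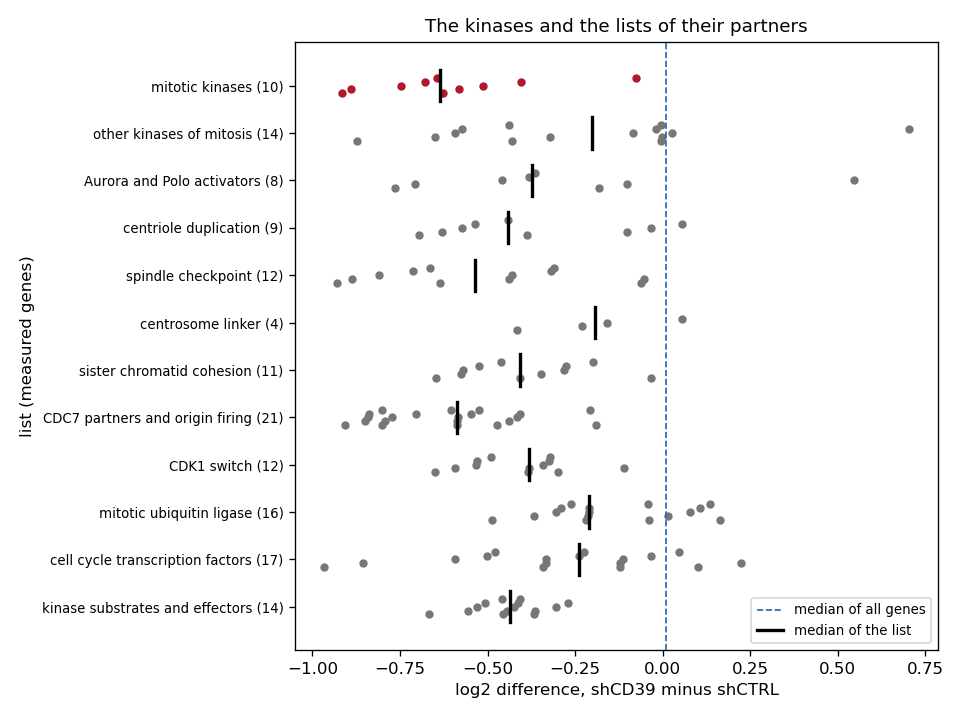
Log2 difference, shCD39 minus shCTRL, of each measured gene (points) in the list of the 10 kinases and in 11 lists of their partners, with the number of measured genes in brackets. Thick lines are list medians, from -0.64 for the kinases to -0.19 for the centrosome linker, and the dashed line is the median of all genes, 0.01. Some genes stand in more than 1 list.

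Markers of cell identity were read beside these values. Of 12 listed markers of the myeloid line 7 were measured, with a median difference of 0.13. The receptor CSF1R (difference 1.36), the lysozyme gene LYZ (1.07) and TYROBP (1.06) were higher in every shCD39 array than in every shCTRL array. The same held for 3.61% of all genes, and none of the 3 markers passed the threshold (limma adjusted p = 0.0849, 0.0926 and 0.0822). MPO (-0.40), FLT3 (-0.29) and CD4 (-0.01) had a lower mean, and SPI1 stood at 0.13. Without shCD39 array 4, CSF1R, LYZ and TYROBP rose (limma adjusted p = 0.00774, 0.00475 and 0.00414), as did IL7R of the T and NK cell list (limma adjusted p = 0.0089), against 0.746% of all genes. The mean log2 level of the 7 myeloid markers ran from 7.74 to 8.36 in shCD39 and from 7.51 to 7.78 in shCTRL. These levels were above the array medians, as were those of every other marker list. CSF1R read 5.67, 6.72, 6.29 and 5.11 in shCD39 arrays 1 to 4, so that array 4, in which 8 kinases were at their highest within shCD39, was the lowest of the 4. The lists of other cell types had mean levels of 4.16 to 4.76 in shCD39 and 3.94 to 4.34 in shCTRL for 6 T and NK cell genes (5 of 6 with a higher mean, IL7R at 1.53). For 2 B and plasma cell genes the levels were 5.13 to 5.34 in shCD39 and 5.23 to 5.33 in shCTRL, and for 5 erythroid and megakaryocyte genes 3.51 to 3.79 in shCD39 and 3.50 to 3.70 in shCTRL. For 7 fibroblast and epithelial genes they were 3.73 to 3.92 in shCD39 and 3.48 to 3.69 in shCTRL (7 of 7 with a higher mean). Of the 27 marker genes 0 passed limma over all arrays, with 5 higher and 1 lower in shCD39 at an unadjusted p under 0.05 (6.54% and 8.13% of all genes), and their part in the kinase values was not tested.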

How the data were processed

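The authors deposited 1 log2 value per probe set and array, made with RMA in the oligo package, per the submitters' processing notes, which give no versions. Labelling used the GeneChip WT PLUS kit, per the labels' protocols. The genome build behind the probe sets is not given in the sources used here. Arrays give no read depth, and their number limits the precision.

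Of 53617 probe sets on 8 arrays, 16098 had 1 symbol in the platform annotation and 37519 are unnamed here. Symbols were updated through Entrez IDs (RefSeq, GRCh38.p14), and for each of 14884 genes the probe set of highest mean was kept. Groups were compared with limma 3.58.1 (lmFit, eBayes) in R 4.3.3, 2-sided, with Benjamini-Hochberg adjustment over all genes, beside an exact permutation test for single genes. The fit was tested on simulated data. Figures used matplotlib 3.10.9 in Python 3.11.15.

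The kinases, the gene lists and the tests were chosen with earlier results of these data known. Named are the kinases, ENTPD1, the 2 largest differences per partner list, all its genes past the threshold, the 5 genes most like PLK1, and the exceptions stated. Alternatives were other scalings of the arrays (quantile, cyclic loess, median), a filter that kept genes above 3.15 in at least 4 arrays, probe set handling, an intensity trend, array weights, a replicate block, leaving out each array, and, added after seeing the data, leaving out both arrays numbered 4.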

Additional observations from a re-analysis of the deposited data

How the results depend on the processing

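As deposited, limma called 14 genes and 0 of the 10 kinases, with 7 kinases at an unadjusted p under 0.05. The count of genes was 5 after quantile normalization, 23 with the filter on dim genes, 22 with an intensity trend and robust prior, 124 with array weights, 6 with the replicate block, 0 to 423 when single arrays were left out, and 368 without both arrays numbered 4. Without shCTRL array 1, where limma called 0, 1574 genes had an unadjusted p under 0.05. The count of kinases was 2 with array weights (HASPIN and MELK, limma adjusted p = 0.0382 and 0.0498), 0 to 5 when single arrays were left out, and 3 without both arrays numbered 4 (HASPIN, MELK and PLK4). It was 5 without shCD39 array 4 and 0 in each of the other settings that left out 1 array. The median difference of the kinases stayed between -0.85 and -0.50 over the 18 settings. Of the 10 kinases, AURKA alone changed sign, with 0.0023 when shCD39 array 3 was left out, and a range of -0.22 to 0.083 over the settings that left out 1 array, the highest value being that without shCTRL array 4. The cause was not tested. ENTPD1 did not pass the threshold in any of the 17 settings that kept it (limma adjusted p from 0.0802 to 0.331). Its difference ran from -0.94 to -0.53 over these settings, and the filter on dim genes dropped it. The arrays share numbers 1 to 4 between groups. Over all genes the deviations of same-numbered arrays correlated by only -0.01, -0.04, 0.05 and 0.06. Among the kinases, array 3 was the lowest in 7 in shCD39 and in 9 in shCTRL. These values do not settle whether the numbers pair the arrays. With the replicate block 0 of the 10 kinases passed. All 10 kinases passed the filter on dim genes. Precision is limited by the 4 arrays of each group.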
